A study of Mus musculus with 5 samples.

Results

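RNA of 10 genes of interleukin-6 (IL-6) family signalling was measured in lung endothelial cell isolates from mice with an endothelial-specific TET2 knockout (TET2KO) and from wild-type (WT) mice. The genes were the ligands Il6 and Lif, the receptor chains Il6ra, Il6st, Osmr and Lifr, the kinase Jak1, the transcription factor Stat3, and the inhibitors Socs1 and Socs3. They were picked by name, with their differences between TET2KO and WT libraries already known, from the 49315 genes of the deposited count table, and all 10 passed the filter on low counts. Their differences between genotypes are therefore given as a description, with no test. The TET2 enzyme oxidises methylated cytosines in DNA. There were 2 TET2KO libraries and 3 WT libraries, and every mouse, WT included, had been infused for 28 days with angiotensin II, which raises blood pressure. The labels gave neither the promoter that drove the deletion, the exons removed, the strain, age or sex, nor how the cells were isolated. Nor did they state that the libraries came from different animals, and the errors and p-values below measure the spread between libraries, part of which may be technical.

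Cytokines of the IL-6 family act through receptor complexes that share the chain gp130, the product of Il6st. IL-6 binds the IL-6 receptor alpha chain (Il6ra) before it engages gp130, leukaemia inhibitory factor (Lif) pairs gp130 with Lifr, and in the mouse oncostatin M pairs gp130 with Osmr. Janus kinases such as JAK1 then phosphorylate the receptor tails and STAT3, which enters the nucleus and induces genes that include Socs3, whose protein binds gp130 and shuts the kinase down. The pathway is known for acute phase responses and, in blood vessels, for leukocyte recruitment and barrier leak.

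The libraries held 30035235 and 31239463 counts in the TET2KO group and 27346804 to 35440257 in the WT group. All 10 genes of an endothelium marker list were counted in every library and together made up 0.505% and 0.501% of the counts in TET2KO replicates 1 and 2, against 0.293%, 0.172% and 0.368% in WT replicates 1, 2 and 3. Leukocytes were also present: 5 pan-leukocyte genes made up 0.335% to 0.348% of TET2KO counts and 0.406% to 0.439% of WT counts. WT replicate 2 stood apart, with 3.11% of its counts from 10 macrophage and monocyte genes, against 0.334% to 1.00% in the other 4 libraries. All genes of these 3 lists had counts in every library. Among the other 8 marker lists, Ly6g of the neutrophil list was the 1 gene with a count of 0, in 2 libraries. B cell content also varied. The 6 B cell genes made up 0.346% and 0.215% of counts in TET2KO replicates 1 and 2. In WT replicates 1, 2 and 3 they made up 0.393%, 0.0979% and 0.486%. In such bulk samples, fewer cells of a type and less RNA per cell cannot be told apart. The targeted gene Tet2 had 4608 and 5188 counts in TET2KO libraries and 4018, 5142 and 4130 in WT libraries, a count over the whole gene that does not check the genotype labels.

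The fold changes in the authors' deposited table did not follow the labels. For the 12175 genes with a mean of at least 100 normalized counts, every log2 fold change lay within 0.01 of the log2 ratio of the mean of WT replicate 3 and both TET2KO libraries to the mean of WT replicates 1 and 2. Grouped by the labels, TET2KO over WT, 3.22% of these genes came within 0.01, and the median absolute difference was 0.17 on the log2 scale. WT replicate 3 is kept in the WT group here, as its label says. Whether the label or the deposited grouping is right cannot be told apart, so fold changes of the 10 genes are also given without WT replicate 3.

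The 10 genes spanned a wide range of levels in TPM, a unit scaled by gene length and library total. Averaged over all 5 libraries, Socs3 was highest at 726 TPM, followed by Jak1 at 278 TPM, and the ranges of both overlapped across libraries. Il6st at 131 TPM and Stat3 at 125 TPM came next and overlapped with each other, but not with Jak1 above or Il6 below. Il6 at 62.9 TPM, Il6ra at 54.5 TPM and Socs1 at 54.2 TPM overlapped as well. Lifr averaged 31.1 TPM and Lif 16.2 TPM, and the ranges of these neighbours overlapped. Osmr, at 8.74 TPM, was the lowest of the 10 and overlapped with Lif.

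**Figure D1:**
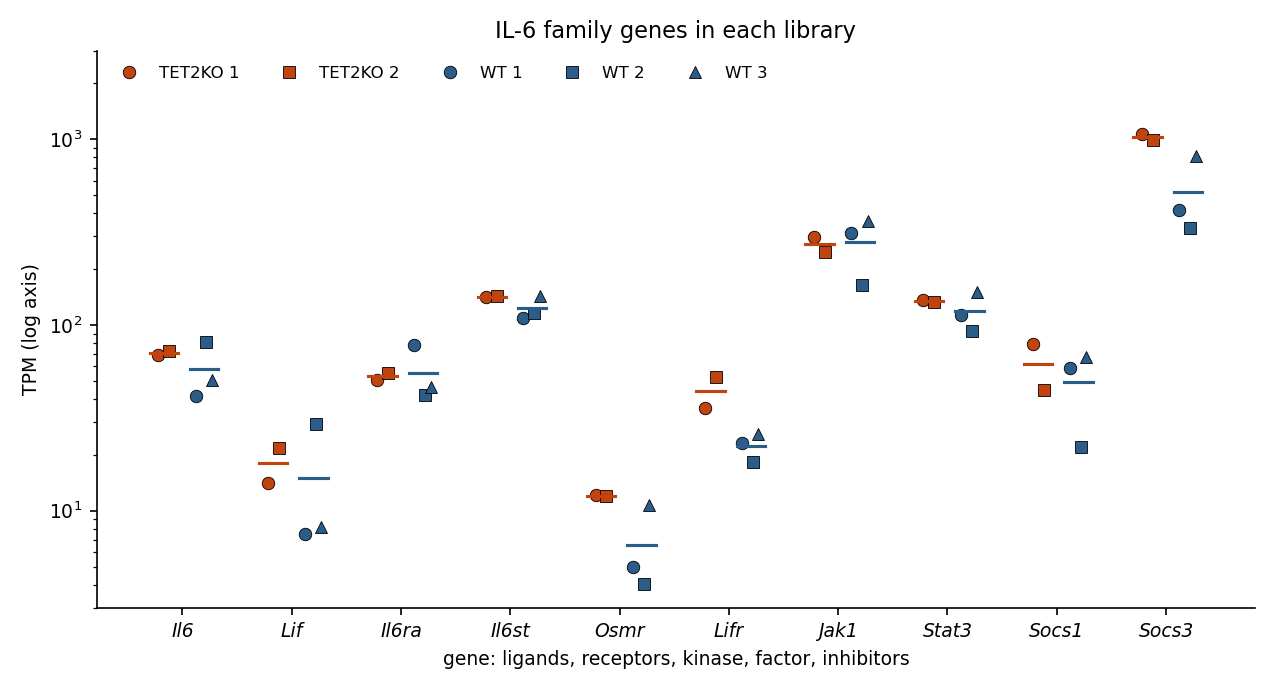
TPM of each of the 10 genes (log axis) in the 2 TET2KO libraries (left of each pair, orange) and the 3 WT libraries (right, blue), with symbols for the replicate number and bars for group means. Lifr, Osmr and Socs3 lay higher in both TET2KO libraries than in all 3 WT libraries, and WT replicate 3 lay nearer to the TET2KO libraries than the other WT libraries did for Osmr (10.7 TPM) and Socs3 (815 TPM).

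Neither ligand separated the genotypes. Il6, an inflammatory cytokine made by leukocytes, fibroblasts and endothelium, stood at 69.4 and 72.1 TPM in TET2KO replicates 1 and 2, against 41.7, 80.7 and 50.6 TPM in WT replicates 1, 2 and 3. Both TET2KO values lay inside the WT range, and WT replicate 2 was highest. On the CPM scale (counts scaled to library totals that were adjusted by TMM), Il6 averaged 47.0 ± 1.33 CPM in TET2KO and 46.5 ± 24.4 CPM in WT (SD, n = 2 and 3). Its log2 fold change came to 0.02 (SE 0.42). Lif, which signals through Lifr and gp130, had 14.2 and 21.9 TPM in TET2KO libraries and 7.46, 29.4 and 8.19 TPM in WT replicates 1, 2 and 3. Its WT values spread 5.23-fold on the CPM scale, the widest of the 10 genes, with WT replicate 2 again the highest. The log2 fold change was -0.09 (SE 0.79). Without WT replicate 3 it was -0.41 for Lif and -0.11 for Il6. The sign also turned for Lif when TET2KO replicate 1 was dropped (0.19), and for Il6 when WT replicate 1 (-0.23) or TET2KO replicate 2 (-0.01) was dropped.

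The library highest in both ligands was also the one highest in macrophage transcripts. Lyz2, which encodes a myeloid lysozyme, had 2844 and 4625 CPM in TET2KO libraries and 5259, 18223 and 1762 CPM in WT replicates 1, 2 and 3. Osm, which encodes oncostatin M and is a product of activated myeloid cells, had 177 and 204 TPM in TET2KO libraries and 197, 527 and 145 TPM in WT replicates 1, 2 and 3. Without WT replicate 2 the log2 fold change, TET2KO over WT, was 0.56 (SE 0.16) for Il6 and 1.15 (SE 0.25) for Lif. That library was the highest for both genes and the furthest from the other WT libraries. Leaving it out was therefore bound to raise the fold changes and to narrow the WT spread, and shows no difference between genotypes. At the low end, Il6 and Lif were lowest in WT replicate 1 and the macrophage list in WT replicate 3. The part of macrophages in the ligand values was not tested.

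The Il6 promoter is shown because it holds the best known inducible elements of the family. In the 250 bases before the RefSeq start of Il6 (chr5:30012864-30013113, plus strand, GRCm38.p6), none of which is exonic in GENCODE, capitals mark, from left to right, a cAMP response element core (ACGTCA), a C/EBP-like site (TTGNGCAAT) and a kappaB-like site (GGG, any 2 bases, TTTCC), searched on both strands.
Il6: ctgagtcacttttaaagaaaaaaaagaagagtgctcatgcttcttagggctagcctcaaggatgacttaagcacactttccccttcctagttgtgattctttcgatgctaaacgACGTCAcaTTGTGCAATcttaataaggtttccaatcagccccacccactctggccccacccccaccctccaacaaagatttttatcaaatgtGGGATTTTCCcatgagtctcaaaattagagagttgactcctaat
Among 32851 RefSeq promoter windows of this length, 6.47% held the response element core, 0.539% the C/EBP-like site and 1.41% the kappaB-like site. The matches are letters in a window and were chosen after the sequence was seen.

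Of the receptor chains, Lifr and Osmr were higher in both TET2KO libraries than in all WT libraries, while Il6ra and Il6st were not. Lifr, the LIF receptor (chr15:7090614-7197489, plus strand, GRCm38), had 35.9 and 52.3 TPM in TET2KO replicates 1 and 2, against 23.1, 18.3 and 25.9 TPM in WT replicates 1, 2 and 3. In CPM the WT libraries lay close together (highest to lowest ratio 1.15) and the TET2KO libraries stood apart from each other (1.46). In TPM these ratios were nearly equal, at 1.41 and 1.46. Lifr averaged 125 ± 33.0 CPM in TET2KO and 73.0 ± 5.26 CPM in WT (SD, n = 2 and 3). The resulting log2 fold change, TET2KO over WT, was 0.77 (SE 0.21). TET2KO replicate 2 was the higher of the TET2KO libraries, and leaving it out gave 0.47, while leaving out TET2KO replicate 1 gave 1.02. Leaving out WT replicate 3 gave 0.86.

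Osmr, the oncostatin M receptor (chr15:6813577-6874969, minus strand), had 12.1 and 12.0 TPM in TET2KO libraries, against 4.97, 4.03 and 10.7 TPM in WT replicates 1, 2 and 3. The TET2KO libraries were nearly equal, and WT replicate 3 lay just below them, well above the other WT libraries. On the CPM scale the means were 39.9 ± 0.240 in TET2KO and 24.6 ± 11.7 in WT (SD, n = 2 and 3). The log2 fold change was 0.70 (SE 0.38) with all libraries and 1.19 (SE 0.18) without WT replicate 3. It fell to 0.50 (SE 0.39) without WT replicate 1 and to 0.55 (SE 0.37) without WT replicate 2. The raw counts behind these values were 1326 and 1268 in TET2KO libraries and 491, 548 and 1199 in WT libraries.

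Il6ra, the ligand-binding chain for IL-6, which leukocytes and hepatocytes are known to carry, had 50.9 and 55.3 TPM in TET2KO libraries and 78.0, 41.8 and 46.6 TPM in WT replicates 1, 2 and 3. WT replicate 1 was the highest and the groups overlapped, with a log2 fold change of -0.25 (SE 0.25). Dropping WT replicate 3 gave -0.36, and dropping WT replicate 1 gave -0.02. Of its 8642 exonic bases, 242 overlap the antisense gene Gm42809, and reads there cannot be told apart by gene without a stated strand setting. Il6st, the shared gp130 chain, was the most abundant receptor in every library, at 141 and 143 TPM in TET2KO and 109, 116 and 144 TPM in WT replicates 1, 2 and 3. It was also among the steadiest of the 10 genes, with a highest to lowest ratio of 1.41 in CPM and a log2 fold change of -0.01 (SE 0.22). Leaving out 1 library at a time gave -0.15 to 0.11, with 0.08 without WT replicate 3.

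Set against the shared chain, the other receptor chains differed in how the genotypes lay. The ratio of Il6st to Osmr, in TPM, was 11.7 and 12.0 in TET2KO libraries and 22.0, 28.9 and 13.4 in WT replicates 1, 2 and 3. The ratio of Il6st to Lifr was 3.94 and 2.74 in TET2KO libraries and 4.72, 6.35 and 5.55 in WT libraries. Both ratios were lower in each TET2KO library than in any WT library. Il6st itself differed little between genotypes (log2 fold change -0.01), so both largely restate the Osmr and Lifr values. The ratio of Il6st to Il6ra, at 2.78 and 2.59 in TET2KO and 1.40, 2.78 and 3.08 in WT, overlapped.

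Jak1 and Stat3, which carry the signal inside the cell, did not separate the genotypes. Jak1 had 296 and 247 TPM in TET2KO libraries and 315, 164 and 365 TPM in WT replicates 1, 2 and 3, a log2 fold change in CPM of -0.22 (SE 0.28). Stat3 had 137 and 133 TPM in TET2KO libraries and 113, 93.4 and 151 TPM in WT replicates 1, 2 and 3. Its log2 fold change was -0.01 (SE 0.21), and its highest to lowest ratio in CPM, 1.38, was the smallest of the 10 genes. In TPM both genes were highest in WT replicate 3. Without that library the log2 fold changes were 0.00 for Jak1 and 0.16 for Stat3. For Jak1, dropping WT replicate 2 gave -0.38, dropping TET2KO replicate 1 gave -0.36 and dropping TET2KO replicate 2 gave -0.09. For Stat3, dropping WT replicate 1 gave -0.11. Stat3 shares 72 of its 9527 exonic bases with Stat5a on the opposite strand.

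The inhibitors differed from each other. Socs1, a suppressor of cytokine signalling that blocks Janus kinases and is induced by interferons, had 78.6 and 44.7 TPM in TET2KO libraries and 58.8, 22.1 and 66.9 TPM in WT replicates 1, 2 and 3. The TET2KO libraries bracketed WT replicates 1 and 3, and the log2 fold change was 0.17 (SE 0.43). Its sign rested on single libraries. Dropping TET2KO replicate 1 gave -0.29, and dropping TET2KO replicate 2 gave 0.52. In the WT group, dropping replicate 1 gave 0.27, replicate 2 gave -0.09 and replicate 3 gave 0.46. Socs3 (chr11:117966079-117970047, minus strand), the inhibitor that STAT3 induces, had 1070 and 991 TPM in TET2KO libraries, against 418, 334 and 815 TPM in WT replicates 1, 2 and 3. The TET2KO values were the highest of the 5, and WT replicate 3 lay closer to them than to its own group. Socs3 averaged 816 ± 43.7 CPM in TET2KO and 469 ± 195 CPM in WT (SD, n = 2 and 3). Its log2 fold change was 0.80 (SE 0.35), and 1.23 (SE 0.21) without WT replicate 3. It fell to 0.62 (SE 0.39) without WT replicate 1 and to 0.67 (SE 0.35) without WT replicate 2.

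Per Stat3 transcript, Socs3 stood at 7.82 and 7.44 in TET2KO libraries and at 3.71, 3.58 and 5.41 in WT replicates 1, 2 and 3, in ratios of TPM. The ratio was higher in each TET2KO library than in any WT library. Stat3 itself differed little between genotypes (log2 fold change -0.01), so this largely restates the Socs3 values. The Socs3 to Socs1 ratio, at 13.6 and 22.2 in TET2KO and 7.11, 15.1 and 12.2 in WT, overlapped.

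A stretch upstream of Socs3 is shown because STAT3 is known to induce this gene through sites of the form TTCNNNGAA. The 165 bases printed (chr11:117969452-117969616, minus strand, GRCm38.p6, read 5′ to 3′ on that strand) lie before the RefSeq start, and no GENCODE exon of Socs3 covers them, though the longest annotated Socs3 transcript starts further upstream. Another annotated transcript, Socs3-201, starts further downstream, at position 117969186. The bases between the RefSeq start and that position were not searched. Capitals mark the single match, which is letters in a window and was not tested as a STAT3 site.
Socs3: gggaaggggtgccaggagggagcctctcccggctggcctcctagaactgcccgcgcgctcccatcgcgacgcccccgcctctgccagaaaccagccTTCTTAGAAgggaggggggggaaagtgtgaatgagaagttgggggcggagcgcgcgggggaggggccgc
The match begins 154 bases before the RefSeq start. TTCNNNGAA, which reads the same on both strands, was found in 7.02% of the 32851 windows, and the stricter form TTCCNGGAA in 0.913%. All 10 genes had a RefSeq promoter. None of the other 9 genes held TTCNNNGAA in its windows of 250 bases. None of the 10 held TTCCNGGAA in these windows, and sites outside them were not searched. The Osmr window, which had neither form, lies inside an exon of the longer GENCODE transcripts and is not printed.

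In all, 3 of the 10 genes (Osmr, Lifr and Socs3) had both TET2KO libraries above all WT libraries, and 0 had both below. This held on the CPM and the TPM scale. Over the 18727 genes tested, 12.4% lay above and 12.4% below in this way in CPM, and 20.8% above and 2.3% below in TPM. In the edgeR quasi-likelihood fit with Benjamini-Hochberg adjustment, 0 of 18727 genes (0%) were called at an adjusted p under 0.05, none of the 10 among them. Before adjustment, 1065 genes (5.69%) had an edgeR p under 0.05, of which 971 (5.19%) were higher and 94 (0.502%) lower in TET2KO libraries. DESeq2 called 21 of 16615 genes (0.126%) after adjustment, again none of the 10. The median log2 fold change of the 10 genes was 0.00, with 5 above 0. Over all genes tested it was -0.08, with 41.6% above 0.

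**Figure D2:**
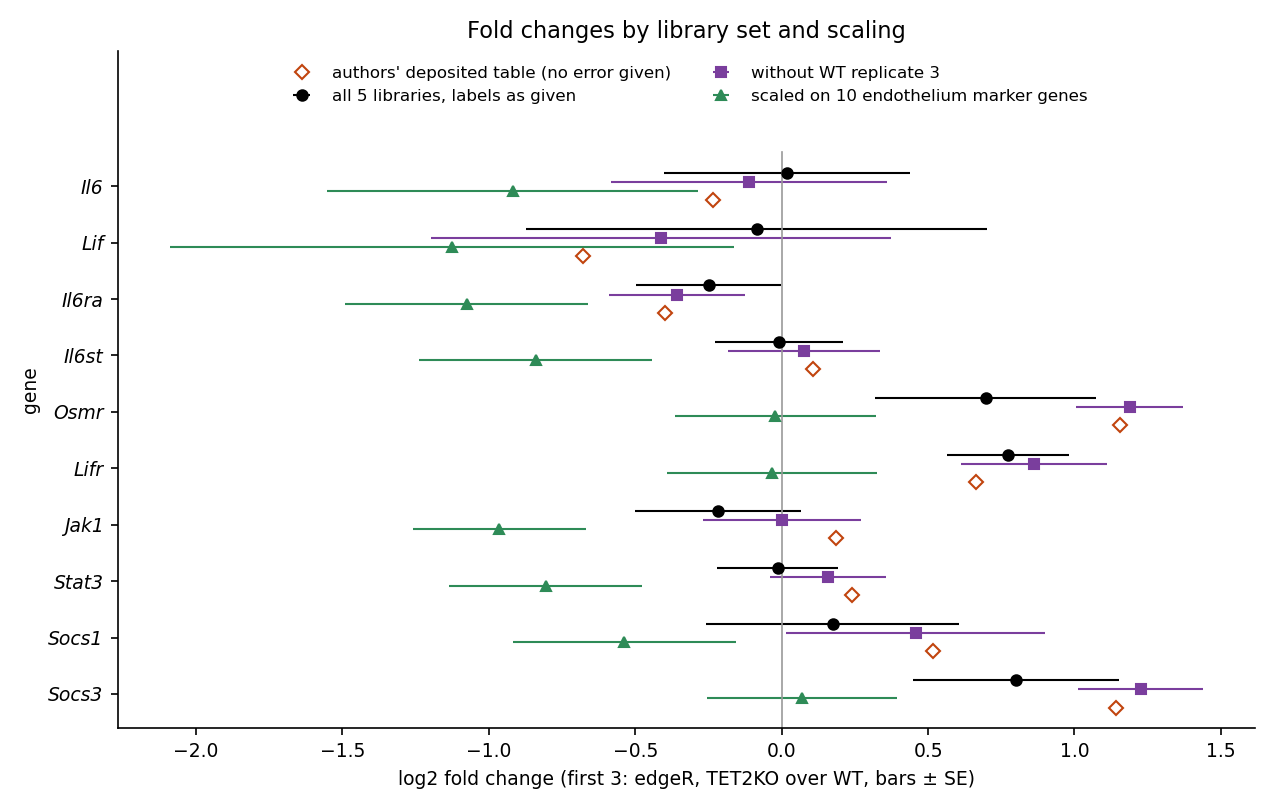
Log2 fold changes, TET2KO over WT, of the 10 genes by edgeR (± SE) with all 5 libraries, without WT replicate 3 and with libraries scaled on 10 endothelium marker genes, beside the values of the authors' deposited table, which set WT replicate 3 and both TET2KO libraries over WT replicates 1 and 2. Osmr stood at 0.70, 1.19, -0.02 and 1.16 in that order, and Socs3 at 0.80, 1.23, 0.07 and 1.14.

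The endothelium list, like Osmr, Lifr and Socs3, was higher in both TET2KO libraries than in all WT libraries. It summed to 4767 and 4712 CPM in TET2KO libraries and to 2808, 2062 and 3626 CPM in WT replicates 1, 2 and 3. Pecam1, the endothelial adhesion molecule CD31, was at 979 and 998 CPM in TET2KO libraries and 647, 415 and 806 CPM in WT replicates 1, 2 and 3, with WT replicate 3 again the highest of its group. Ptprc, which encodes CD45 of leukocytes, had 1205 and 1163 CPM in TET2KO and 1513, 1206 and 1398 CPM in WT. Per 1000 counts of the endothelium list, Osmr had 8.40 and 8.43 counts in TET2KO libraries and 6.13, 8.98 and 10.5 in WT replicates 1, 2 and 3. On the same measure Socs3 had 178 and 167 in TET2KO against 123, 178 and 191 in WT, and Lifr had 21.3 and 31.4 against 24.3, 34.8 and 21.7. The groups overlapped for all 3 genes on this measure, where 0.902% of all genes tested lay above and 57.1% below in both TET2KO libraries. The part of endothelial content in these differences was not tested.

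Of the other 7 genes, Il6st, Stat3, Jak1 and Il6ra lay below all WT libraries in both TET2KO libraries on this measure, as 57.1% of all genes did. Il6st had 90.1 and 92.5 counts per 1000 endothelium counts in TET2KO libraries and 123, 238 and 129 in WT replicates 1, 2 and 3. Stat3 had 74.9 and 73.8 in TET2KO and 109, 164 and 117 in WT. Per 1000 counts of the pan-leukocyte list both Il6st and Stat3 lay above instead. Il6st had 131 and 138 in TET2KO and 82.5, 99.3 and 117 in WT, and Stat3 had 109 and 110 in TET2KO and 73.1, 68.4 and 106 in WT. On that measure Il6st, Osmr, Lifr, Stat3 and Socs3, 5 of the 10 genes, lay above in both TET2KO libraries, where 45.3% of all genes lay above and 0.368% below. When libraries were scaled on the endothelium list in edgeR, the median of all genes moved to -0.88. Relative to it the log2 fold changes were 0.86 for Osmr, 0.84 for Lifr, 0.95 for Socs3, 0.04 for Il6st and 0.07 for Stat3. With TMM scaling the same values relative to the median of all genes were 0.77, 0.85, 0.88, 0.07 and 0.06. A change of scaling shifts all genes by nearly the same amount, and subtracting the median removes that shift. The closeness of both sets of values was therefore built in and makes no allowance for endothelial content.

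**Figure D3:**
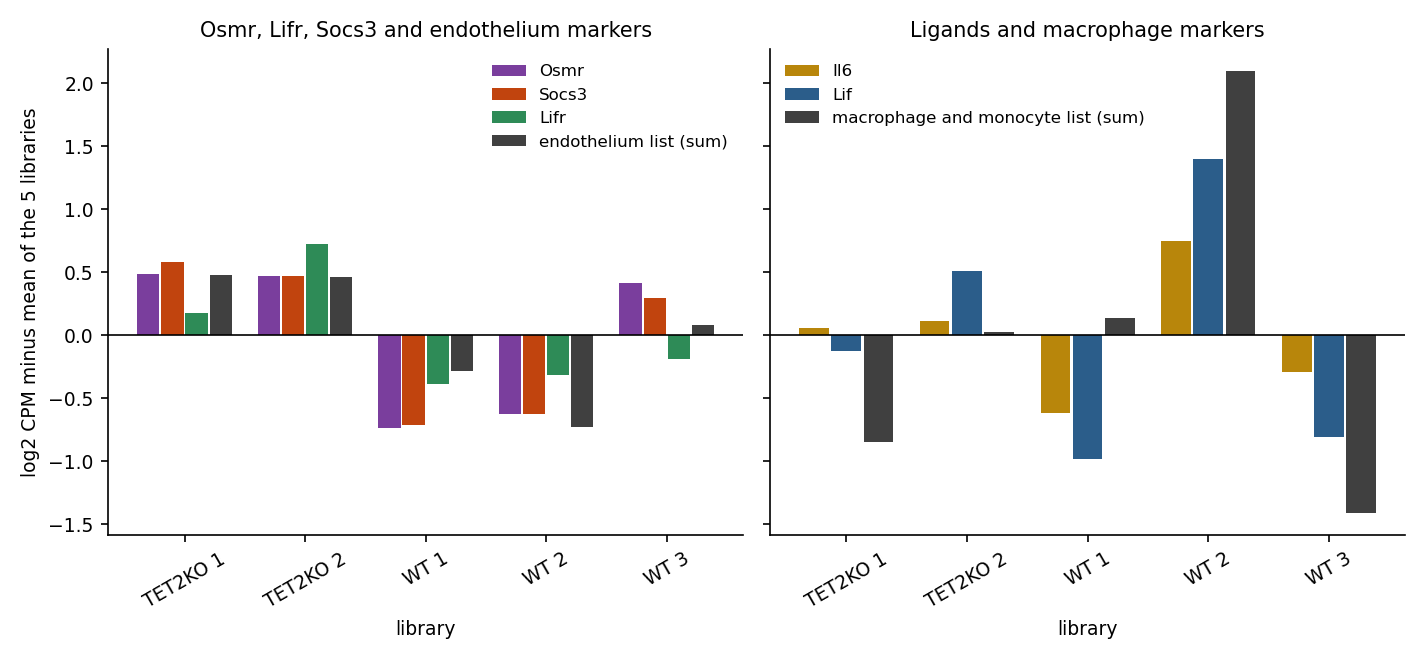
Log2 CPM minus the mean of the 5 libraries for Osmr, Socs3 and Lifr beside the summed endothelium list (left), and for Il6 and Lif beside the summed macrophage and monocyte list (right), with the TET2KO libraries left of the WT libraries. Osmr and Socs3 lay above their means in TET2KO replicates 1 and 2 and WT replicate 3, and Il6 and Lif were highest in WT replicate 2.

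Osmr and Socs3 had nearly the same pattern over the 5 libraries. Likeness was measured as the root mean square difference of log2 CPM, each gene centred on its mean, among genes with a mean log2 CPM of at least 1. Socs3 was the nearest of 13170 genes to Osmr, at 0.07, followed by the chemokine gene Cxcl12 (0.07) and Adm (0.09), which encodes the vasodilator adrenomedullin. The nearest to Socs3 were Cxcl12 (0.04), the semaphorin gene Sema3g (0.06) and Upp1 (0.07), a uridine phosphorylase. Cxcl12 was at 189 and 171 CPM in TET2KO libraries and 71.8, 82.9 and 156 CPM in WT replicates 1, 2 and 3. Sema3g was at 414 and 368 CPM in TET2KO and 174, 172 and 307 CPM in WT. Likeness over 5 libraries is a description, and these genes were all high in WT replicate 3 relative to the other WT libraries.

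Lifr did not share this pattern as closely. Its nearest member was Socs3, at 0.36, with WT replicate 3 well below the TET2KO libraries for Lifr and near them for Socs3. Il6st and Stat3 were nearest to each other (0.14). Over all genes, Il6st was closest to Rassf1, Gnpda2 and 1810013L24Rik (each 0.05), and Stat3 to Zfp871 (0.03), Srrm1 (0.04) and Dot1l (0.04). Lif was nearest to Il6 (0.45), Il6 to Il6st (0.34), Il6ra and Socs1 to Jak1 (0.38 and 0.31), and Jak1 to Stat3 (0.24).

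In the authors' deposited table, Osmr had a log2 fold change of 1.16 with an adjusted p of 3.97e-05 and Socs3 of 1.14 with an adjusted p of 0.000137. Both stood in the authors' deposited shorter table of 217 genes, 1.57% of the 13826 genes with an adjusted p and 1.2% of the 18019 genes listed, and the other 8 of the 10 genes did not. At an adjusted p under 0.05 alone, the authors' deposited table held 299 genes (2.16%), and 122 genes (0.882%) stood in the shorter table with a higher value. As shown above, those values set WT replicate 3 with the TET2KO libraries. Grouped by the labels, the same normalized counts gave log2 ratios of means, TET2KO over WT, of 0.71 for Osmr and 0.81 for Socs3. DESeq2 on the deposited counts with the labels gave 0.70 (SE 0.45) and 0.80 (SE 0.41). For Il6 and Jak1 the sign differed between groupings: the authors' deposited table had -0.23 for Il6 and 0.18 for Jak1, where the label grouping of the same counts gave 0.03 and -0.20. Stat3 stood at 0.24 in the authors' deposited table and at 0.00 by the labels. For Lifr the deposited table gave 0.66 (adjusted p 0.301), and the label grouping 0.79.

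Beyond the 10 genes, 64 other genes of the pathway in 7 lists were examined, of which 61 passed the count filter. edgeR called 0 of the 61 after adjustment over all 18727 genes (background 0%), in either direction, and 3 at an unadjusted p under 0.05 (5.69% over all genes). Their log2 fold changes had a median of -0.03, with 29 above 0 (41.6% over all genes). In CPM, 7 of the 61 had both TET2KO libraries above all WT libraries and 7 had both below. Over all genes tested, 12.4% lay each way.

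**Figure D4:**
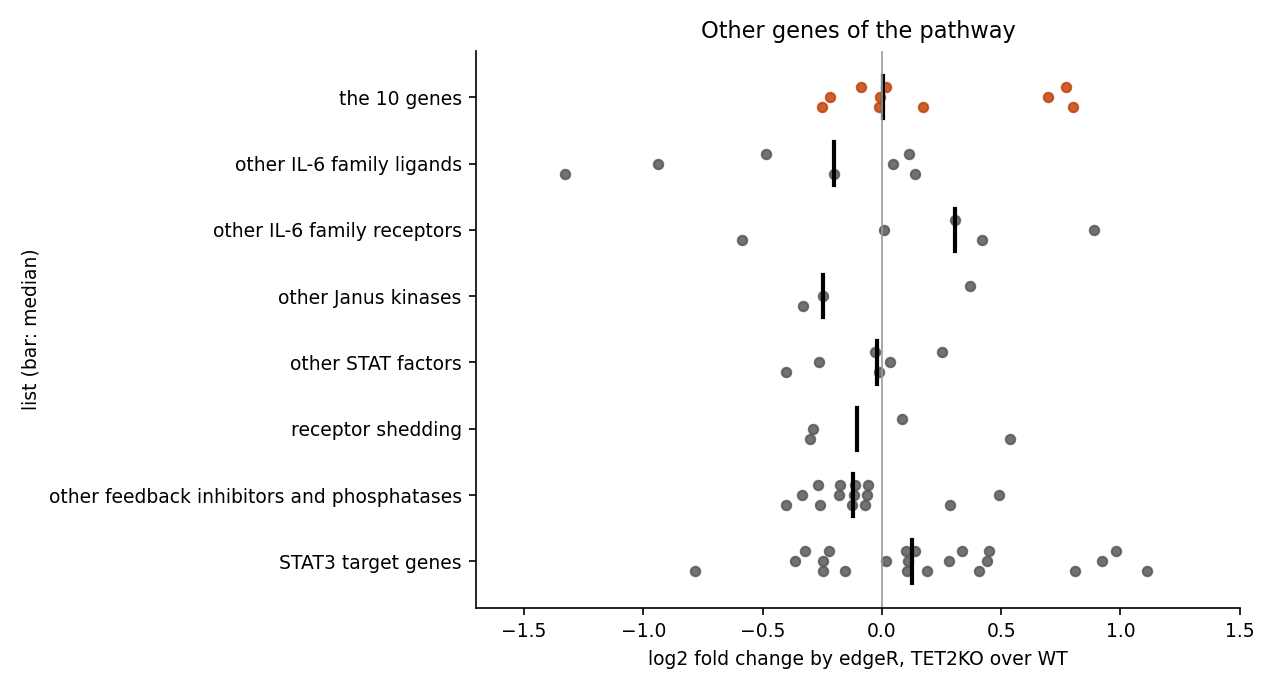
Log2 fold changes, TET2KO over WT, by edgeR for the 10 genes (orange) and for the tested members of 7 lists of other pathway genes (grey), with black bars at the medians. STAT3 target genes ranged from -0.78 to 1.11 around a median of 0.12.

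Of the other ligands, 7 of 9 were tested and 3 had a fold change above 0, with a median of -0.20. Osm had a log2 fold change of -0.94 (SE 0.71), and WT replicate 2 held 13462 of its counts, against 3055 to 4048 in each other library. Ctf2, a cardiotrophin gene, had 9 and 9 counts in TET2KO libraries and 14, 46 and 2 in WT libraries, with a log2 fold change of -1.33 (SE 1.15). Il27, a subunit of interleukin-27, differed by -0.49 (SE 0.87). Clcf1, another family ligand named after its values were seen, was abundant at 148 and 124 TPM in TET2KO libraries and 132, 54.7 and 152 TPM in WT replicates 1, 2 and 3. Among the other receptors, 5 of 6 were tested and 4 were above 0. Il11ra1, the interleukin-11 receptor, had 12.1 and 13.9 TPM in TET2KO and 14.2, 23.6 and 10.1 TPM in WT, with a log2 fold change of -0.58 (SE 0.49). Cntfr, the ciliary neurotrophic factor receptor, had 12 and 22 counts in TET2KO and 11, 14 and 10 in WT (log2 fold change 0.42, SE 0.47). The groups overlapped.

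None of the 3 other Janus kinases or 6 other STAT factors passed the test. Jak3, the kinase of lymphocyte cytokine receptors, was at 182 ± 14.4 CPM in TET2KO and 141 ± 25.2 CPM in WT (SD, n = 2 and 3). Its TET2KO values both lay above all WT values, as for 12.4% of all genes in CPM. Its log2 fold change was 0.37 (SE 0.21; edgeR adjusted p = 0.875). Jak2 differed by -0.33 (SE 0.44) and Tyk2 by -0.25 (SE 0.22). Stat2, of interferon signalling, was at 119 ± 10.4 CPM in TET2KO and 99.7 ± 10.7 CPM in WT (SD, n = 2 and 3). Stat6, of interleukin-4 signalling, had 242 and 231 CPM in TET2KO libraries and 272, 305 and 273 CPM in WT libraries. Both TET2KO values lay below all WT values, as for 12.4% of all genes in CPM. In TPM the Stat6 groups overlapped, at 201 and 191 in TET2KO and 216, 183 and 211 in WT libraries. Neither Stat2 nor Stat6 passed the test (edgeR adjusted p = 0.875 for both). Stat4 differed by -0.40 (SE 0.61). Of the genes that shed IL-6 family receptors, the proteases Adam10 and Adam17 had log2 fold changes of -0.29 (SE 0.25) and -0.30 (SE 0.30), and Rhbdf1, which escorts ADAM17, of 0.54 (SE 0.33).

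Among 14 other feedback inhibitors and phosphatases, all tested, 2 lay above 0 (41.6% over all genes). In CPM, 6 had both TET2KO libraries below all WT libraries, where 12.4% of all genes did. In TPM, where 2.3% of all genes did, only Ptpn2 of these stayed below. It had 45.1 and 44.6 TPM in TET2KO and 47.8, 49.6 and 47.5 TPM in WT libraries. The median log2 fold change of the 14 genes was -0.12, against -0.08 for all genes. Ptpn6, the leukocyte phosphatase SHP-1, was at 212 ± 17.9 CPM in TET2KO and 280 ± 27.5 CPM in WT (SD, n = 2 and 3). On the log2 scale the genotypes differed by -0.40 (SE 0.18; edgeR adjusted p = 0.875). Ptpn2, which dephosphorylates JAK1 and STAT3, differed by -0.33 (SE 0.20) and Ptpn1 by -0.26 (SE 0.17). These 3 phosphatases stood beside a pan-leukocyte list that was also lower in both TET2KO libraries, and the part of leukocytes was not tested.

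Of the 22 STAT3 target genes, all tested, 15 lay above 0 (41.6% over all genes). In CPM, 4 had both TET2KO libraries above all WT libraries (12.4% over all genes). The 3 with the smallest p were Ccnd1, Vegfa and Lcn2. Vegfa, the main angiogenic growth factor, had 354 and 339 TPM in TET2KO libraries and 133, 106 and 224 TPM in WT replicates 1, 2 and 3. Its log2 fold change was 0.98 (SE 0.28; edgeR adjusted p = 0.778), with WT replicate 3 the highest of the WT group. Ccnd1, a cyclin of the G1 phase, was at 44.0 ± 3.15 CPM in TET2KO and 23.2 ± 5.27 CPM in WT (SD, n = 2 and 3). The log2 fold change was 0.92 (SE 0.23; edgeR adjusted p = 0.778). Lcn2, the acute phase protein lipocalin-2, had 8.75 and 13.2 TPM in TET2KO libraries and 6.03, 4.21 and 2.92 TPM in WT libraries (log2 fold change 1.11, SE 0.39; edgeR adjusted p = 0.828). Of the 54 other pathway genes with an adjusted p in the authors' deposited table, 2 stood in its shorter version, where 1.57% of all genes with an adjusted p did. These were Vegfa (1.14) and Cebpd (1.28) in the authors' deposited table, named after their values were seen. Cebpd, a transcription factor of the acute phase, had 132 and 103 TPM in TET2KO libraries and 36.9, 49.3 and 141 TPM in WT replicates 1, 2 and 3. For this gene WT replicate 3 was the highest of all 5 libraries.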

How the data were processed

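Poly(A) RNA from lung endothelial cell isolates was sequenced as paired-end reads of 150 bp. Per the labels, reads were mapped to GRCm38 with STAR. The submitters' processing notes list Trimmomatic 0.36, STAR 2.5.2b, featureCounts, Subread 1.5.2 and DESeq2, the last without a version, and give no order or settings. The strand setting is not given in the sources used here. Deposited by the authors were raw counts for each gene, TPM values, and comparison tables that held log2 fold changes, p-values and size-factor normalized counts (a normalized signal), per the file headers.

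The counts were tested with edgeR 4.0.16 in R 4.3.3 (TMM scaling, filterByExpr, genotype as the only term, quasi-likelihood F test, Benjamini-Hochberg adjustment over 18727 genes, threshold 0.05). Each standard error was taken from the fold change and its F statistic. Values of log2 CPM had a prior count of 2. Total counts of 27346804 to 35440257 per library kept counting error small for the 10 genes. DESeq2 1.42.0, voom of limma 3.58.1, other scalings and filters, the replicate number as a block, left-out libraries and log2(TPM + 1) or log2(TPM + 0.1) were alternatives. Annotation came from GENCODE mouse release 21 (99.3% of gene identifiers matched) and sequences from RefSeq, GRCm38.p6. Protein sequences were not analysed here. The 10 genes and all lists were chosen with earlier results of these data known. Genes named beside the 10 were Tet2, up to 3 genes per pathway list with the smallest p, the 3 nearest in pattern to each of Il6st, Osmr, Stat3 and Socs3, and Pecam1, Ptprc and Lyz2. 1 gene that this rule names is not reported here. Others are said to have been named after their values were seen.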

Additional observations from a re-analysis of the deposited data

How the results depend on the processing

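Across 15 alternatives, edgeR, limma-voom and limma on TPM called 0 genes in each setting, and DESeq2 called 21, none of them among the 10 genes or the other pathway genes. The median log2 fold change of the 10 genes was 0.00. It was -0.82 with libraries scaled on endothelium markers, where the median of all genes was -0.88. On log2(TPM + 1) it was 0.38 and on log2(TPM + 0.1) 0.39, where the medians of all genes were 0.12 and 0.17. Leaving out each library in turn gave -0.066 to 0.33, the highest without WT replicate 2. Socs3 stayed above 0 in all 15 alternatives, and Osmr and Lifr in 14, the exception being the endothelium scaling (-0.02 and -0.03). Il6ra stayed below 0 in all 15, though barely in some: -0.01 in both TPM fits and -0.02 without WT replicate 1. The cause of these shifts was not tested. With the replicate number as a block, 0 genes were called and the median of the 10 genes was 0.10. The labels give no shared origin for equal numbers, and deviations of same-numbered libraries correlated across genes at 0.22 and 0.49. With 2 TET2KO libraries, a library left out of that group leaves 1, which is assumed to vary like the WT group.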
